A study of Mus musculus with 12 samples.

Results

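The genes described here encode the UDP-glucuronosyltransferases (Ugt) and the cytosolic sulfotransferases (Sult) of the mouse kidney. They were taken from the deposited table as every protein-coding gene whose symbol starts with Ugt, a family number from 1 to 3, the letter a or b and a digit, or with Sult and a digit. The rule gave 42 of the 52636 genes in the table, 21 Ugt genes (9 Ugt1a, 3 Ugt2a, 7 Ugt2b and 2 Ugt3a) and 21 Sult genes (6 Sult1, 9 Sult2, 2 Sult3, 1 Sult4, 1 Sult5 and 2 Sult6). Of the 42, 16 reached 1 FPKM (fragments per kilobase of gene, relative to library size as scaled by the authors) in at least 3 of the 12 libraries and were tested, 11 Ugt and 5 Sult. The other 26 were below this minimum, 9 of them at 0 in every library.

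Both families attach a polar group to drugs, hormones, bile pigments and dietary phenols, which makes them easier to carry out of the cell and to excrete. Ugt enzymes sit in the membrane of the endoplasmic reticulum and mostly transfer glucuronic acid from UDP-glucuronic acid. Sult enzymes are cytosolic and transfer sulfate from PAPS (3′-phosphoadenosine-5′-phosphosulfate). In the kidney such conjugation takes place largely in the tubule, and in the liver several Ugt and Sult genes are known targets of the pregnane X receptor (PXR, gene Nr1i2).

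The mice were C57BL/6 wild-type males, 8 weeks old, and kidney RNA was read in 3 libraries for each of 4 groups. Control mice received corn oil and saline. The PCN group received pregnenolone carbonitrile, a steroid that activates rodent PXR, at 40 mg/kg by mouth each day, and saline. The cisplatin group received corn oil and cisplatin, which is a platinum compound toxic to the proximal tubule, injected once into the peritoneum at 20 mg/kg. The cisplatin+PCN group received both agents. Dosing with oil or PCN began 4 days ahead of the injection and went on for 3 days afterwards, and kidneys were collected on day 4 after the injection. One sentence of the protocol text also names the cisplatin group among those pretreated with PCN, against the rest of that text, and groups follow the library titles here. The labels do not say whether the 3 libraries of a group came from separate mice, so p-values measure only the spread between these libraries.

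Between 18914607 and 26530485 reads per library were assigned to genes. With cisplatin, 14 of 14 proximal tubule markers were lower than in control (median log2 change -3.29), and their summed level went from 30500 to 35400 FPKM in control to 3460 to 4010 FPKM. The cisplatin+PCN libraries spread from 3430 to 9000 FPKM in this sum. Most of the sum is 1 gene, Kap, which averaged 27500 FPKM in control and 3260 with cisplatin. Kap ran from 2937 to 7707 FPKM in the cisplatin+PCN libraries, so the sum shows little of the other markers. Havcr1, the tubular injury marker KIM-1, was at 22.8 FPKM in cisplatin+PCN replicate 1, at 321 and 262 FPKM in replicates 2 and 3, and at 232, 493 and 297 FPKM with cisplatin, so that replicate 1 stood apart. Liver markers summed to 24.5 to 54.2 FPKM in control and 93.1 to 127 FPKM with cisplatin. Among them Alb was lower with cisplatin (0.527 FPKM ± 0.113, SD, n = 3, against 5.38 ± 3.10), and Fgb higher (63.6 FPKM against 0.201). In bulk tissue fewer cells of a type and less RNA per cell cannot be told apart.

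The 9 Ugt1a genes are alternative starts of 1 locus on chromosome 1, and their exon sharing decides what their values count. Each has its own first exon, which is spliced to a common second exon at chr1:88215044-88215175 (GRCm38, plus strand), followed by 3 more common exons. In the gene models 1311 exon bases, in 4 stretches of 132, 88, 220 and 871 bases, belonged to all 9 genes. The junctions are shown for the 5 tested genes and Ugt1a6a, with the last 30 bases of the first exon in lower case and the first 30 bases of the common exon in capitals, 5′ to 3′ as transcribed, from GENCODE transcripts of GRCm38.
Ugt1a10: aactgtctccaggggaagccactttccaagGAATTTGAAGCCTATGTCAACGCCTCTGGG
Ugt1a9: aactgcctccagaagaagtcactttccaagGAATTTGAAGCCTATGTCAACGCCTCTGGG
Ugt1a7c: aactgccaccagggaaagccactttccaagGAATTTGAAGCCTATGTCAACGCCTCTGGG
Ugt1a6a: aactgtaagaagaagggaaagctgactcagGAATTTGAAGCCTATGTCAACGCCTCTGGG
Ugt1a2: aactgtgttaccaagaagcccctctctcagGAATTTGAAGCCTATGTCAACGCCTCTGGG
Ugt1a1: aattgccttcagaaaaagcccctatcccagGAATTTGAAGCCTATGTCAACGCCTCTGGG
The first exons of Ugt1a6a and Ugt1a6b end in the same 30 bases, as do those of Ugt1a5 and Ugt1a2, so the 9 genes had 7 distinct ends and 1 common start.

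How reads over shared bases were treated can be read from the table itself. Of all its genes, 1181 genes had no exon base outside the exons of other genes on either strand, and 1120 of them (94.8%) were at 0 in every library, against 44.7% of the 40973 genes whose exon bases were all their own. Of the 1181, 461 have bases of their own when strand is used, and 447 of these (97%) were at 0. By this measure reads over the common exons were not assigned to any Ugt1a gene, while the deposited length of each gene includes those exons. Ugt1a FPKM values are thus too low in absolute terms. The ratio of a gene's FPKM between groups is not touched by this. The minimum of 1 FPKM and the changes of log2(FPKM + 1) given below are touched, and the latter come out smaller. Per kilobase of own exon bases, on the FPKM scale, Ugt1a2 averaged 1.53 in control and Ugt1a6b 1.35, where their FPKM were under 1. Per gene, 809 bases of Ugt1a10, 900 of Ugt1a2, 879 of Ugt1a9 and 385 of Ugt1a1 were its own. The Ugt1a1 first exon lost 528 bases to the antisense gene Gm20528, which has no base of its own and 0 reads in all libraries. Ugt2a1 and Ugt2a2 share nearly all of their exons, with 30 and 140 bases of their own, so their values of 0 show little.

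**Figure D1:**
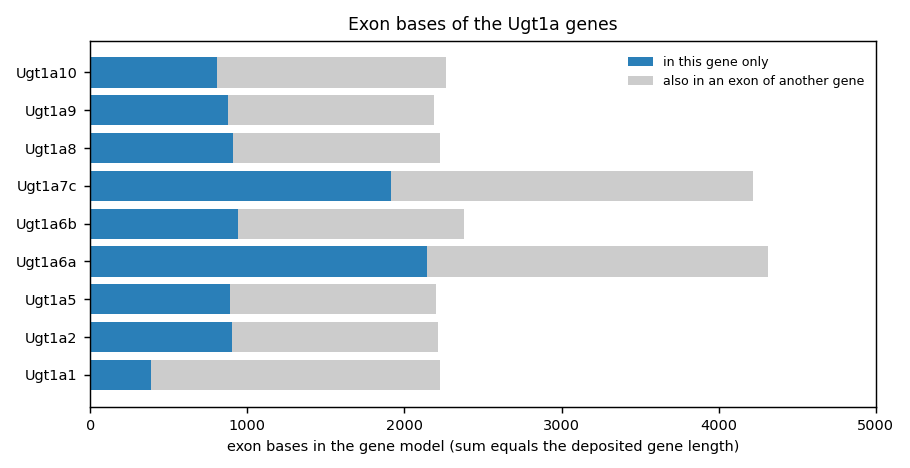
Exon bases of the 9 Ugt1a gene models, on the horizontal axis, split into bases found in that gene only (blue) and bases also in an exon of another gene (grey). The blue bases run from 385 in Ugt1a1 to 2142 in Ugt1a6a.

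For 2 of these genes the unshared bases are not a first exon alone. The Ugt1a7c model is the only one that runs on for 998 bases at the 3′ end (chr1:88219005-88220002), where 7 of the 9 Ugt1a genes end in RefSeq. Reads from the 3′ end of other Ugt1a transcripts would be counted to Ugt1a7c there, and cannot be told apart from reads of Ugt1a7c in a table of gene totals. Its first exon supplies 917 of its 1915 own bases. In Ugt1a6a, 1920 of 2142 own bases lie between the common exons, in introns that 1 of its annotated transcripts retains. Of the 954 bases of its coding first exon, 859 also belong to a Ugt1a7c transcript, so the value named Ugt1a6a draws mostly on intron bases; where within them its reads fall is not given by a table of gene totals.

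In control kidney 3 members stood far above the rest. Ugt3a2 had the highest mean at 500 FPKM ± 28.9 (SD, n = 3), followed by Ugt2b38 at 432 ± 74.0 and Sult1d1 at 421 ± 34.1, and the range of Ugt2b38 (375 to 516 FPKM) overlapped those of Ugt3a2 (469 to 526 FPKM) and Sult1d1 (382 to 444 FPKM). In control replicate 1 Ugt2b38 was above Ugt3a2. Human UGT3A enzymes use sugars other than glucuronic acid. Ugt2b enzymes glucuronidate steroids and xenobiotics, and Sult1d1 sulfates catecholamines and phenols. Next came Ugt3a1 at 110 ± 3.86 FPKM and Ugt2b37 at 98.9 ± 24.9, which also overlapped, then Ugt1a7c at 59.5 ± 6.47, Sult1c2 at 34.0 ± 2.34, Ugt2b34 at 10.9 ± 0.272, Sult1a1 at 9.85 ± 0.824 and Ugt2b5 at 5.21 ± 0.904. The other 6 tested genes were at or below 2.02 FPKM on average. Divided by its own 1915 bases, Ugt1a7c reached 131 ± 14.2 and moved from the sixth to the fourth place, ahead of Ugt3a1 and Ugt2b37, and Ugt1a10 moved ahead of Ugt2b5 (5.66 ± 5.10 per own kilobase on the FPKM scale). No other member changed its place beyond making room for these. Because the Ugt1a7c value may hold reads of other Ugt1a transcripts, its place may not be that of Ugt1a7c alone.

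Cisplatin changed most of the tested members, in both directions. Against control, 6 rose (Ugt1a10, Ugt1a2, Ugt1a1, Ugt1a9, Sult1a1 and Sult1e1) and 7 fell (Ugt2b38, Ugt2b37, Ugt2b5, Ugt3a1, Ugt3a2, Sult1c2 and Sult1b1), in limma with all 12 libraries in the fit and Benjamini-Hochberg adjustment over the 13540 genes tested. Over all genes 63.9% passed in this comparison, 32.0% as higher and 31.9% as lower, so change as such was common. The median log2 change was 0.15 over the 16 members and 0.01 over all genes tested. Sult1e1, Ugt1a1, Ugt1a2 and Ugt1a9 were under 1 FPKM in every control and PCN library and passed the minimum only through libraries with cisplatin, so they had to differ and their count carries no weight. With total-read scaling 4928 genes were higher and 3631 lower, and with limma-voom 4858 and 3646, against 4330 and 4319 in the scaling of the deposited values, and the calls of the 16 members were the same. All changes are differences of log2(FPKM + 1), a scale that understates those of low genes.

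Of the members tested, Ugt2b37 and Ugt2b38 had the steepest falls. Ugt2b38 was at 516, 375 and 405 FPKM in the control libraries and at 16.5, 24.9 and 12.9 FPKM with cisplatin. Its mean was 23.8 times lower, a log2 change of -4.54 ± 0.38 (SE; limma adjusted p = 2.62e-06). Ugt2b37 went from 127, 79.1 and 90.9 FPKM to 2.11, 1.72 and 1.18 FPKM, a mean 59.3 times lower (log2 -5.21 ± 0.41, adjusted p = 1.53e-06). Control and cisplatin libraries did not overlap for either gene. Ugt2b5 fell from 6.16, 5.12 and 4.36 FPKM to 0.979, 1.42 and 0.454 FPKM (log2 -1.69 ± 0.28, adjusted p = 0.000294).

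Ugt2b34 did not move with its 3 relatives. It was at 11.2, 10.9 and 10.7 FPKM in control and at 9.67, 17.2 and 10.3 FPKM with cisplatin, with 1 cisplatin library above control and the others just below it (log2 0.13 ± 0.22, adjusted p = 0.636). Its transcript is 69.1% identical to that of Ugt2b38, where Ugt2b37 and Ugt2b5 are 93.5% and 95.7% identical to it. Of all 100-base stretches of the Ugt2b38 transcript 75.8% occur in no other gene, against 98.9% for Ugt2b37 and 75.3% for Ugt2b5, so reads split between Ugt2b38 and Ugt2b5 are uncertain. Proximal tubule markers fell in the same libraries, and their part in these changes was not tested.

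**Figure D2:**
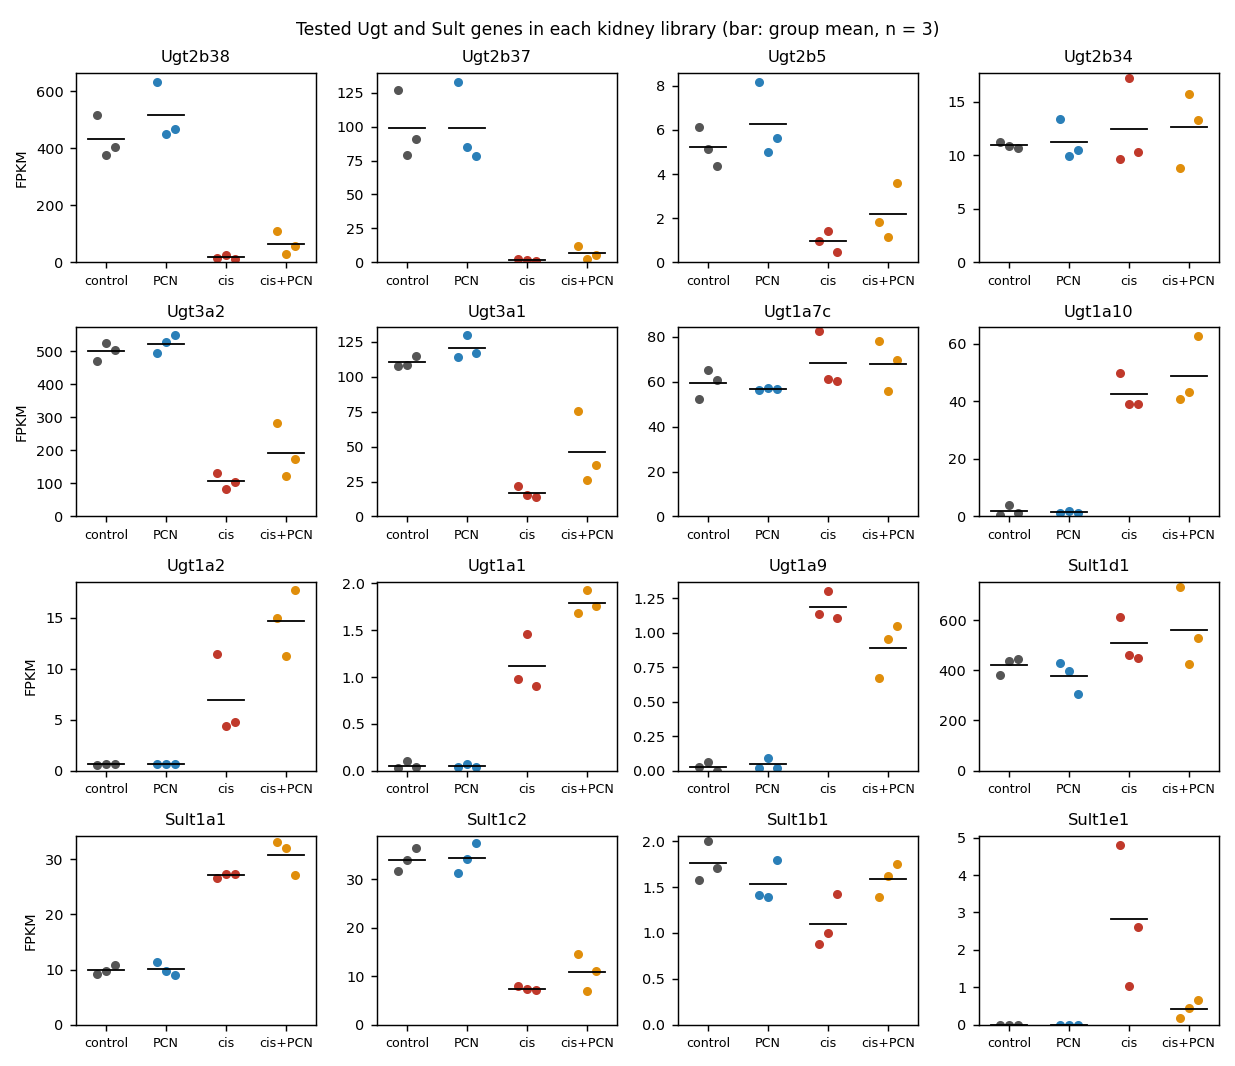
FPKM of the 16 tested Ugt and Sult genes in each of the 12 libraries (points) by group, with the group mean as a bar; each panel has its own vertical axis from 0. Ugt2b37, Ugt2b38, Ugt3a1, Ugt3a2 and Sult1c2 lie high in control and PCN and low with cisplatin, while Ugt1a10, Ugt1a2, Ugt1a1, Ugt1a9 and Sult1a1 show the opposite order.

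The start regions of Ugt2b37 and Ugt2b38, the pair with the steepest falls, are near copies. Both are shown as the 250 bases before the RefSeq start on the minus strand of GRCm38.p6, at chr5:87254789-87255038 and chr5:87424204-87424453, with capitals at aligned bases that differ.
Ugt2b37: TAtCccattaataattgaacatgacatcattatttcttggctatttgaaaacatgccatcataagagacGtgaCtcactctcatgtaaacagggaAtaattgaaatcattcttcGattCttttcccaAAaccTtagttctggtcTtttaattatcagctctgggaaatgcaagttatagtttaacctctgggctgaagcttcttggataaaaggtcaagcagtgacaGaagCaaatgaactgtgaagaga
Ugt2b38: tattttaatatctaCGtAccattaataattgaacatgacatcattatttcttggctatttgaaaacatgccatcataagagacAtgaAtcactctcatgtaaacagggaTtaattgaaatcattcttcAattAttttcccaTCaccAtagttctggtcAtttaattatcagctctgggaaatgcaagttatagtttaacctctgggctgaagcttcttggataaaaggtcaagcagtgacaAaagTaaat
Of 236 aligned bases 222 (94.1%) were identical.

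Both Ugt3a genes fell less steeply than the 2 abundant Ugt2b genes. Ugt3a2 stood at 469, 526 and 505 FPKM in control and at 132, 83.2 and 104 FPKM with cisplatin, 4.71 times lower on average (log2 -2.25 ± 0.25, adjusted p = 1.87e-05). In FPKM it was still the highest Ugt gene after cisplatin, but per own kilobase Ugt1a7c (150 ± 27.8) and Ugt1a10 (120 ± 17.6) had higher means. The Ugt1a7c value may include reads of other Ugt1a transcripts. Ugt3a1 went from 108, 109 and 115 FPKM to 21.5, 15.1 and 14.3 FPKM, 6.5 times lower (log2 -2.65 ± 0.29, adjusted p = 1.79e-05). Neither gene's control and cisplatin libraries overlapped.

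In the Ugt1a locus 4 first exons rose from low levels. Of these, Ugt1a2, Ugt1a1 and Ugt1a9 met the minimum only through libraries with cisplatin, so their adjusted p carries no weight. Ugt1a10, whose human namesake is expressed mainly outside the liver, was at 0.637, 4.08 and 1.34 FPKM in control (27, 211 and 68 reads) and at 49.95, 39.0 and 39.1 FPKM with cisplatin (2180, 2042 and 2415 reads). Its mean was 21.1 times higher (log2 4.01 ± 0.33, adjusted p = 2.25e-06), with control replicate 2 well above the other control libraries. Ugt1a2 went from 0.532, 0.674 and 0.667 FPKM to 11.5, 4.39 and 4.80 FPKM, 11-fold (log2 2.17 ± 0.26, adjusted p = 3.63e-05), and cisplatin replicate 1 was the high library. Control and cisplatin libraries were apart for both genes.

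Ugt1a1, the bilirubin-conjugating form, had 1, 5 and 2 reads in control and 42, 75 and 55 with cisplatin, which is 0.0240, 0.0986 and 0.0402 against 0.981, 1.46 and 0.908 FPKM. The log2 change was 1.0 ± 0.11 (adjusted p = 1.47e-05). Ugt1a9, which conjugates bulky phenols, had 1, 3 and 0 reads in control and 48, 66 and 66 with cisplatin (log2 1.09 ± 0.10, adjusted p = 5.74e-06). Control levels of both rest on so few reads that their folds are imprecise. As both met the minimum only through libraries with cisplatin, they had to differ and these p-values are no evidence of a rise.

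Ugt1a7c, whose count may include the 3′ ends of other forms, was at 52.5, 65.2 and 60.9 FPKM in control and 82.7, 61.2 and 60.4 FPKM with cisplatin, with overlapping groups (log2 0.18 ± 0.14, adjusted p = 0.286). Per own kilobase on the FPKM scale, Ugt1a10 reached 120 ± 17.6 (SD, n = 3) with cisplatin from 5.66 ± 5.10 in control, beside 150 ± 27.8 and 131 ± 14.2 for Ugt1a7c. Ugt1a2 came to 16.9 ± 9.76 with cisplatin, Ugt1a1 to 6.45 ± 1.73 and Ugt1a9 to 2.95 ± 0.266 on the same scale.

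Start regions of 2 first exons that rose are shown, 1 with and 1 without a sequence matched by hepatocyte nuclear factor 1 (HNF1), a factor of liver and proximal tubule that is known to act on Ugt1a genes. Both are the 250 bases before the RefSeq start on the plus strand of GRCm38.p6, at chr1:88055161-88055410 and chr1:88200361-88200610. Capitals mark the HNF1 half-site GTTAAT on either strand.
Ugt1a10: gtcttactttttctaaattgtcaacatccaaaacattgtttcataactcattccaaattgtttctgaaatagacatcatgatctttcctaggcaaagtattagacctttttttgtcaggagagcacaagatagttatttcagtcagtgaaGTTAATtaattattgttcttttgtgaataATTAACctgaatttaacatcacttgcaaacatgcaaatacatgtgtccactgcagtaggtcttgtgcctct
Ugt1a2: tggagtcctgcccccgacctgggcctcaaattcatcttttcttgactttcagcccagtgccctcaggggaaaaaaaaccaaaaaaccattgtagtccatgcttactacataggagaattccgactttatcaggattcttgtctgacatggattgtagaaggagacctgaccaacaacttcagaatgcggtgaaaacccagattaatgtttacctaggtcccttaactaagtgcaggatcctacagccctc
In Ugt1a10 the matches start 100 and 71 bases before the start.

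RefSeq promoter windows (250 bases before to 50 after a start) were found for 36 of the 42 members, and some genes have more than 1. GTTAAT, searched on both strands, occurred in windows of 13 of the 36 (36.1%), against 7.1% of all 32841 windows. Among tested members it was in 4 of the 6 that rose (Ugt1a10, Ugt1a1, Ugt1a9 and Sult1a1), in 1 of 6 that fell and had a window (Ugt3a1) and in Sult1d1. Of those that rose, Ugt1a1, Ugt1a9, Ugt1a2 and Sult1e1 met the minimum only through libraries with cisplatin, so counts by direction carry no weight. The other members with GTTAAT (Sult2a3, Sult2a4, Sult2a5, Sult2a6, Sult3a2, Ugt2a3 and Ugt1a6a) were below the minimum. The xenobiotic response element core GCGTG was in 5 of 36 members' windows (13.9%) against 32.4% of all windows, and in none of the 6 members that rose. The antioxidant response element core TGACNNNGC was in 0 of 36 against 12.4%, and the nuclear receptor half-site AGTTCA in 11 of 36 (30.6%) against 14% of all windows. Each match is a description of letters in a short window, and the members include near copies of each other.

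Among the Sult genes Sult1d1 made up 90.1% of the summed Sult level in control and 92.6% with cisplatin. It was at 382, 437 and 444 FPKM in control and at 613, 463 and 450 FPKM with cisplatin, where every cisplatin library lay above every control library, but the change did not pass (log2 0.26 ± 0.20, adjusted p = 0.268). Sult1a1, the phenol sulfotransferase, went from 9.12, 9.69 and 10.7 FPKM to 26.5, 27.4 and 27.3 FPKM, 2.75-fold (log2 1.37 ± 0.10, adjusted p = 6.99e-07).

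Sult1c2 fell from 31.7, 33.9 and 36.4 FPKM to 7.96, 7.34 and 7.06 FPKM, 4.56 times lower (log2 -2.05 ± 0.19, adjusted p = 4.77e-06). Sult1b1, which sulfates thyroid hormones and phenols, fell from 1.58, 2.003 and 1.71 FPKM to 0.878, 0.997 and 1.43 FPKM (log2 -0.40 ± 0.11, adjusted p = 0.00978). Its cisplatin replicate 3 lay close to the lowest control library.

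Sult1e1, the estrogen sulfotransferase, had no read in any of the 6 control and PCN libraries and 115, 30 and 88 reads with cisplatin, or 4.81, 1.05 and 2.60 FPKM. Against a floor of 3 reads over the 3 control libraries the cisplatin mean was at least 74.5-fold higher. The fitted log2 change was 1.81 ± 0.29 (adjusted p = 0.000255), and its size depends on the pseudocount. Sult1e1 met the minimum only through the cisplatin libraries, so this p carries no weight. Sult1e1 is also expressed in liver and fat. Adipocyte markers summed to 31.6 to 111 FPKM in control and 52.1 to 89.0 FPKM with cisplatin, and of the 7 tested 1 was higher (Cidec, 3.57 ± 2.67 to 13.5 ± 3.82 FPKM) and 0 lower. Of 7 tested liver markers 2 were higher with cisplatin (Fgb and Serpina1b) and 2 lower (Alb and Apoa2), with a median log2 change of 0.44. The part of other cell types in the Sult1e1 value was not tested.

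**Figure D3:**
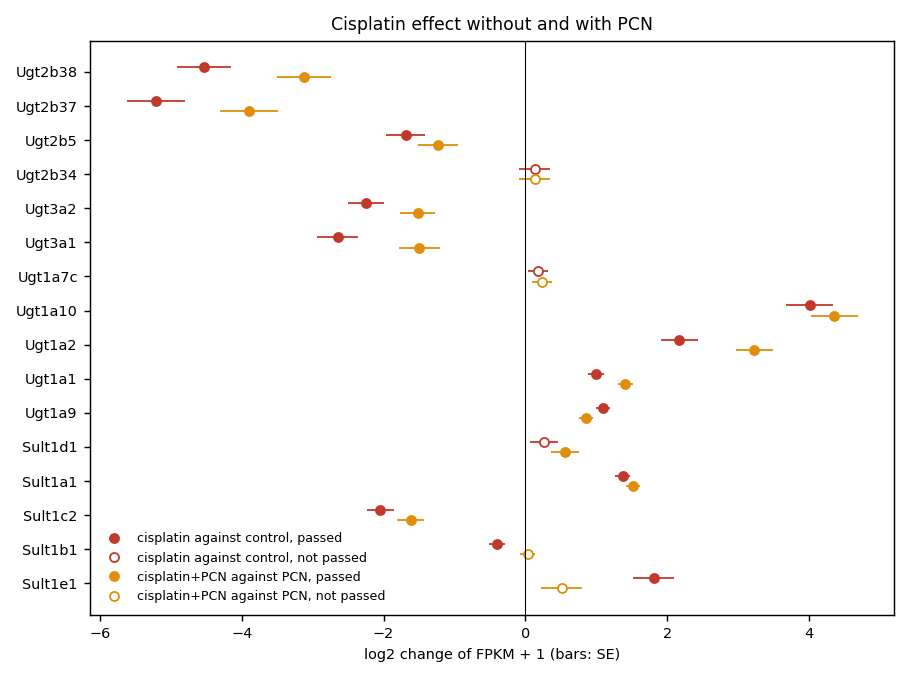
Log2 change of FPKM + 1 (horizontal axis, bars ± SE) for the 16 tested members with cisplatin against control (red) and with cisplatin+PCN against PCN (orange); filled points passed limma at an adjusted p under 0.05. The Ugt2b37 points lie farthest left at -5.21 and -3.90, the Ugt1a10 points farthest right at 4.01 and 4.36.

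PCN alone did not change any tested member measurably. Of the 16, 0 passed against control and 0 had an unadjusted p under 0.05, and over all 13540 genes 0 (0%) passed limma, with 438 at an unadjusted p under 0.05. A limma-voom fit on whole reads also called 0 genes. Member changes ran from log2 -0.17 (Sult1d1 ± 0.20 and Ugt1a10 ± 0.33, SE) to 0.25 (Ugt2b38 ± 0.38). Control and PCN libraries overlapped in every tested member, which with 3 libraries a group says little. Ugt1a1, a PXR target in liver, had 2, 3 and 2 reads in the PCN libraries. Ugt2b38 was at 632, 450 and 466 FPKM, Ugt3a2 at 494, 527 and 549 FPKM and Sult1a1 at 11.4, 9.80 and 9.09 FPKM. Intervals of this width do not show that PCN left these genes at their control level. Nr1i2, which encodes PXR, was at 2.50 FPKM ± 0.378 in control and 2.29 ± 0.241 with PCN (SD, n = 3), and Cyp3a11, the PXR target most used as a marker in liver, was at 0.0552 ± 0.0529 and 0.123 ± 0.185 FPKM.

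In mice given cisplatin, adding PCN raised 4 members and lowered 1. Ugt2b38, Ugt3a1, Ugt1a2 and Ugt1a1 were higher with cisplatin+PCN than with cisplatin, and Sult1e1 was lower, but Ugt1a1 and Sult1e1 met the minimum only through the group where they are high. Over all genes 15.6% passed in this comparison, 7.97% as higher and 7.61% as lower, and the median log2 change was 0.36 over the 16 members and 0.00 over all genes. These calls rest on the spread shared with the control and PCN libraries. With only the 6 libraries compared, 0 of the 16 members and 1 gene of all tested passed limma. In that fit 8 members had an unadjusted p under 0.05, as did 3094 of all 13540 genes.

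Among the genes that cisplatin had lowered, Ugt2b38 and Ugt3a1 passed here. Ugt2b38 was at 111, 30.5 and 56.4 FPKM with cisplatin+PCN against 16.5, 24.9 and 12.9 FPKM with cisplatin, without overlap and 3.64-fold higher (log2 1.67 ± 0.38, adjusted p = 0.0201). Ugt3a1 was at 75.4, 26.3 and 36.6 FPKM against 21.5, 15.1 and 14.3 FPKM, 2.72-fold higher without overlap (log2 1.27 ± 0.29, adjusted p = 0.0201). In both genes replicate 1, the library with low Havcr1, was the highest of its group. Without it both still passed, at log2 1.20 (adjusted p = 0.0407) for Ugt2b38 and 0.86 (adjusted p = 0.0244) for Ugt3a1. The call for Ugt2b38 was lost without cisplatin replicate 1 or 3 or without cisplatin+PCN replicate 3 (adjusted p up to 0.0782), that for Ugt3a1 without cisplatin replicate 3 or cisplatin+PCN replicate 3 (up to 0.0762). Both were also lost with no minimum and with only the groups compared, where p was 0.137 and 0.142.

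The related genes gave values on the same side that did not pass. Ugt2b37 was at 12.4, 2.36 and 5.13 FPKM with cisplatin+PCN (log2 1.30 ± 0.41, adjusted p = 0.0542), above all 3 cisplatin libraries, and passed under 6 of 21 alternatives (adjusted p from 0.00784 to 0.177). Ugt3a2 was at 283, 122 and 175 FPKM (log2 0.80 ± 0.25, adjusted p = 0.0532) and passed under 4 of 21 (0.00784 to 0.204). Without cisplatin+PCN replicate 1 the values were log2 0.78 and 0.48. Ugt2b5 and Sult1c2 gave log2 0.67 (adjusted p = 0.12) and 0.44 (adjusted p = 0.129), and each passed only without cisplatin+PCN replicate 2. Of the proximal tubule markers 9 of 14 were higher in this comparison and 0 lower, and their part in the member values was not tested.

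Ugt1a2 and Ugt1a1, which cisplatin had raised, were higher still with PCN. Ugt1a2 was at 14.97, 11.2 and 17.7 FPKM against 11.5, 4.39 and 4.80 FPKM (log2 1.08 ± 0.26, adjusted p = 0.0251), with cisplatin replicate 1 just above the lowest cisplatin+PCN library. Ugt1a1 had 94, 109 and 99 reads against 42, 75 and 55, or 1.68, 1.93 and 1.76 FPKM against 0.981, 1.46 and 0.908 FPKM (log2 0.41 ± 0.11, adjusted p = 0.0309). Its groups did not overlap. Ugt1a1 reached 1 FPKM in the 3 cisplatin+PCN libraries and 1 cisplatin library, so it met the minimum only through the group called higher, and its call carries no weight. The Ugt1a2 call was lost without cisplatin replicate 3 or cisplatin+PCN replicate 1 or 3, with no minimum and with only the groups compared (adjusted p up to 0.153). The Ugt1a1 call was lost under 9 of 20 alternatives, among them the removal of cisplatin replicate 1 or 3 or of any cisplatin+PCN library, a pseudocount of 0.1 and limma-voom (adjusted p up to 0.182).

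The other 3 tested Ugt1a genes did not pass. Ugt1a10 was at 40.9, 43.1 and 62.6 FPKM with both agents (log2 0.17 ± 0.33, adjusted p = 0.748) and Ugt1a7c at 77.9, 55.6 and 69.5 FPKM (log2 -0.01 ± 0.14, adjusted p = 0.98). Ugt1a9 gave a value on the other side, at 0.672, 0.951 and 1.05 FPKM against 1.14, 1.31 and 1.11 FPKM, without overlap (log2 -0.21 ± 0.10, adjusted p = 0.177). Whether Ugt1a9 differs from Ugt1a1 and Ugt1a2 in its response was not tested.

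Sult1e1 was lower when PCN was added. Its 6, 14 and 21 reads with cisplatin+PCN, or 0.192, 0.443 and 0.668 FPKM, lay below all cisplatin libraries, 6.49 times lower on average (log2 -1.30 ± 0.29, adjusted p = 0.018). The call was lost without cisplatin replicate 3 or cisplatin+PCN replicate 1 (adjusted p = 0.0629 and 0.0515) and with only the groups compared (0.137). Sult1e1 reached 1 FPKM only in the 3 cisplatin libraries, so it passed the minimum through the group where it is high in this comparison too, and it had to differ. Of the 2 liver markers that rose with cisplatin, Fgb was lower here at 20.8 FPKM ± 3.05 (SD, n = 3; log2 -1.56, adjusted p = 0.000337), and Serpina1b, at 10.1 ± 1.73 against 11.8 ± 2.56 FPKM, did not pass. Their part in the Sult1e1 value was not tested. Sult1d1 (733, 426 and 528 FPKM), Sult1a1 (33.0, 32.0 and 27.1 FPKM) and Sult1b1 (1.39, 1.62 and 1.75 FPKM) did not pass.

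The cisplatin response was measured again, in other libraries, by cisplatin+PCN against PCN. There 6 members rose and 6 fell, beside 46.9% of all genes that passed, 23.5% as higher and 23.4% as lower. With reads scaled by their total instead, 4035 genes were higher and 2412 lower, against 3178 and 3174 in the scaling of the deposited values. Of the 17 members that met the minimum in that scaling, 8 rose and 6 fell. Among the 16 only Ugt1a7c changed its call there, to higher (log2 0.33, limma adjusted p = 0.0385, and 0.0315 with limma-voom). The 2 cisplatin comparisons share no library. Of the 16 members, 11 passed in both (68.8%, against 42.7% of all genes tested), all 11 in the same direction, as did 99.8% of the genes called in both overall. The same sign was seen in 15 of 16 members and in 86.8% of all genes. Part of this was fixed by the minimum, and without the 4 members that met it only with cisplatin, 8 of 12 passed in both.

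Among these 11, 7 (63.6%) had the smaller change in the presence of PCN, where 82.2% of all genes called in both did, so this was common in the table. Ugt1a1, Ugt1a2 and Ugt1a9 are among the 11 and met the minimum only with cisplatin. Without them 6 of 8 (75.0%) had the smaller change. Ugt2b38 fell by 3.12 on the log2 scale with PCN against 4.54 without, Ugt2b37 by 3.90 against 5.21. Ugt3a1 fell by 1.5 against 2.65 and Ugt3a2 by 1.52 against 2.25. Sult1c2 changed by log2 -1.62 against -2.05. Ugt1a2 rose by 3.23 against 2.17, Ugt1a1 by 1.41 against 1.0 and Sult1a1 by 1.52 against 1.37. Sult1b1 gave log2 0.03 ± 0.11 and did not pass with PCN. Sult1e1 gave 0.51 ± 0.29 (adjusted p = 0.171), where its mean was at least 11.5-fold above a floor of 3 reads over the PCN libraries, and it passed under 4 of 20 alternatives. Sult1d1 passed here alone (log2 0.56 ± 0.20, adjusted p = 0.0386), although 1 cisplatin+PCN library lay below the highest PCN library. Its call was lost under 8 of 21 alternatives, among them removal of control replicate 2 or 3, PCN replicate 2 or 3 or cisplatin+PCN replicate 1 or 3 (adjusted p up to 0.145).

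Tested directly, the difference between the 2 cisplatin effects (the interaction) passed in 0 of the 16 members, and limma-voom also called 0 members. An unadjusted p under 0.05 was found for 7 members and for 2617 of all 13540 genes. Among the 7 were Sult1e1, Ugt1a1 and Ugt1a2, which met the minimum only through libraries with cisplatin. Over all genes 15 passed, or 0.111%. The lowest p among members was that of Sult1e1 (interaction log2 -1.30 ± 0.41, adjusted p = 0.145), followed by Ugt1a2 (1.06 ± 0.37, adjusted p = 0.175) and Ugt3a1 (1.15 ± 0.41, adjusted p = 0.18). Without cisplatin replicate 2 Sult1e1 and Ugt1a1 passed, without cisplatin replicate 1 Ugt1a2, and without cisplatin+PCN replicate 2 Ugt2b38, Ugt3a1 and Sult1c2. Of all 13540 genes, the same fits called 1066, 15 and 493 in that order.

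Summed over all 21 genes, the Ugt level was 1221 FPKM ± 61.7 in control, 1336 ± 103 with PCN, 278 ± 45.2 with cisplatin and 462 ± 160 with cisplatin+PCN (SD, n = 3). Because Ugt1a lengths hold shared exons, Ugt1a genes weigh too little in these sums. Ugt2b genes accounted for 547 ± 99.8 FPKM in control and 33.3 ± 10.8 with cisplatin, Ugt3a genes for 610 ± 30.4 and 123 ± 27.8, and Ugt1a genes for 63.3 ± 8.28 and 121 ± 22.6. Ugt2b38 went from 35.2% of the Ugt sum in control to 6.67% with cisplatin and 13.3% with both agents, and Ugt1a10 from 0.169% to 15.4% and 11.4%. Ugt3a2 kept between 32.9% and 44.9% in all 12 libraries. The Sult sum was 467 ± 37.1 FPKM in control, 423 ± 62.1 with PCN, 548 ± 91.9 with cisplatin and 607 ± 160 with both.

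**Figure D4:**
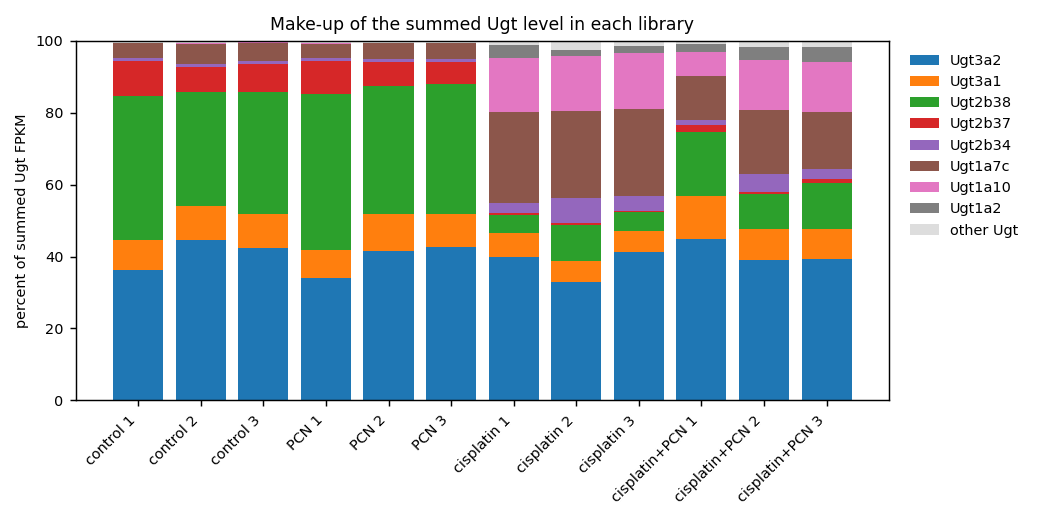
Percent of the summed Ugt FPKM (vertical axis) that each gene contributed in each of the 12 libraries. Ugt2b38 and Ugt2b37 shrink in the 6 libraries with cisplatin while Ugt1a7c, Ugt1a10 and Ugt1a2 take larger shares, and Ugt3a2 stays between 32.9% and 44.9%.

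Of the 26 members below the minimum, 7 averaged at least 0.2 FPKM in some group, which Ugt2b35 did only with cisplatin+PCN. In a fit with no minimum, limma called 32.1% of all genes with cisplatin, and among the 7 it called Sult2b1 (log2 0.34 ± 0.11, adjusted p = 0.04), Sult5a1 (0.32 ± 0.08, adjusted p = 0.0138) and Ugt2b35 (0.20 ± 0.07, adjusted p = 0.0381) as higher, Ugt2a3 (-0.69 ± 0.09, adjusted p = 0.000185) and Ugt1a6b (-0.24 ± 0.08, adjusted p = 0.0422) as lower. Ugt2a3 had 31, 28 and 25 reads in control, 35, 20 and 29 with PCN, 0, 0 and 2 with cisplatin and 13, 1 and 5 with cisplatin+PCN. Sult2b1, which sulfates cholesterol, had 21, 28 and 31 reads in control and 52, 82 and 46 with cisplatin. Ugt2b35 had 0, 1 and 2 reads in control, 8, 20 and 11 with cisplatin and 27, 16 and 37 with both. The value named Ugt1a6a (39, 49 and 47 reads in control, 67, 131 and 60 with cisplatin; adjusted p = 0.0986) and Sult6b1 (5, 8 and 15 against 1, 6 and 3; adjusted p = 0.155) did not pass. Most of the Ugt1a6a coding first exon is shared with Ugt1a7c, so its low value does not give the level of that form. The next 10 genes had at most 11 reads in a library and 0.192 FPKM. Listed at 0 throughout were Sult2a2, Sult2a4, Sult2a5, Sult2a6, Sult2a7, Sult3a1, Sult3a2, Ugt2a1 and Ugt2a2.

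Genes around these enzymes are given list by list, to be read beside the 32.0% of all genes that were higher and the 31.9% that were lower with cisplatin. Of 11 tested genes for the supply of PAPS, 8 fell and 1 rose (median log2 -0.40, against 0.01 over all genes). Slc26a1, a sulfate carrier of the tubule's basolateral side, went from 31.3 FPKM ± 2.20 to 3.13 ± 0.986 (log2 -3.0 ± 0.24, adjusted p = 1.85e-06). Bpnt1, which removes the spent donor PAP, went from 145 ± 3.89 to 53.6 ± 2.25 (log2 -1.42 ± 0.11), and the PAPS synthase Papss2 from 86.2 ± 14.1 to 32.8 ± 1.65 (log2 -1.36 ± 0.20, adjusted p = 0.000138). Of 10 genes for the supply of UDP-glucuronic acid and related sugars, 4 rose and 1 fell, a share of rises near that of all genes. Ugdh, which makes UDP-glucuronic acid, rose from 16.1 ± 2.74 to 29.5 ± 5.08 FPKM (log2 0.84 ± 0.14, adjusted p = 0.000284) and Pgm1 from 5.23 ± 0.151 to 15.7 ± 0.974 (log2 1.42 ± 0.12). The gene of this list that fell, Ugt8a, is a ceramide galactosyltransferase (log2 -1.76 ± 0.17).

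Of 20 tested transporters of conjugates, 10 were higher and 10 lower after cisplatin, among uptake and efflux genes alike. The uptake carriers Slco1a1 (65.6 ± 19.1 to 1.18 ± 0.356 FPKM, log2 -4.91 ± 0.41), Slc22a7 (log2 -4.07 ± 0.53) and Slc22a8 (log2 -3.20 ± 0.44) fell. The efflux pumps Abcc3 (0.538 ± 0.0838 to 5.23 ± 0.768 FPKM, log2 2.01 ± 0.19) and Abcc2 (42.7 ± 2.31 to 63.0 ± 14 FPKM, log2 0.53 ± 0.14) rose. In the other direction the uptake carrier Slc10a6 (log2 1.91) rose and the efflux subunit Slc51a (log2 -2.22) fell, both picked after their values were seen. Of 20 tested Golgi and membrane sulfotransferases, which draw on the same PAPS, 7 rose (Chst13, log2 1.59 ± 0.24) and 6 fell (Chst7, log2 -1.64 ± 0.16, and Chst3, -0.91 ± 0.09). Of 10 glucuronidase and sulfatase genes 1 rose and 6 fell, led by Arsb (log2 -1.38 ± 0.13), Arsk (-0.97 ± 0.11) and Arsg (-0.71 ± 0.18).

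Of 17 tested receptors and factors known to act on Ugt or Sult genes, 4 rose and 7 fell, a share close to that of all genes. Nfe2l2, which encodes the oxidative stress factor NRF2, rose from 22.0 ± 0.849 to 74.0 ± 12.8 FPKM (log2 1.69 ± 0.12, adjusted p = 6.86e-07) and was lower with cisplatin+PCN at 51.2 ± 5.18 (log2 -0.51, adjusted p = 0.0201). Nr1i2 rose to 5.27 ± 1.09 FPKM (log2 0.84 ± 0.12, adjusted p = 0.000122) and stood at 4.68 ± 0.218 with both agents. Nr1h3 (log2 -1.34 ± 0.18) and Hnf4a (212 ± 10.6 to 104 ± 10.9 FPKM, log2 -1.03 ± 0.24, adjusted p = 0.00321) fell. Nr1i3, which encodes the receptor CAR, was under the minimum at 0.0521 ± 0.0238 FPKM in control. With PCN alone 0 genes of the 6 lists passed.

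**Figure D5:**
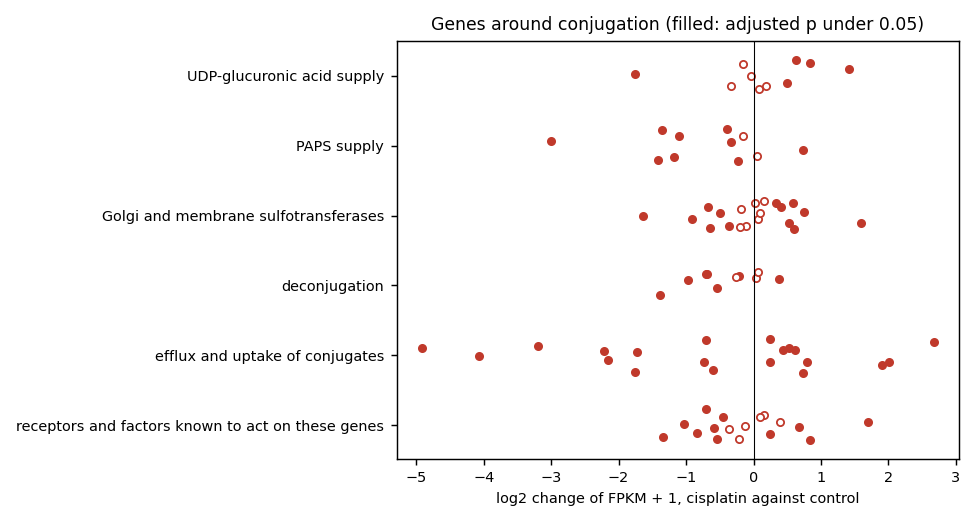
Log2 change of FPKM + 1 with cisplatin against control (horizontal axis) for every tested gene of 6 lists around conjugation, 1 point per gene, filled where limma's adjusted p was under 0.05; vertical jitter has no meaning. PAPS supply lies mostly left of 0 (8 of 11 lower), and transporters spread from -4.91 to 2.67.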

How the data were processed

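Kidney RNA of 12 libraries in 4 groups of 3 was analysed from 1 table of FPKM that the authors deposited. Per the submitters' processing notes, which give no roles, HISAT2 2.0.5, featureCounts 1.5.0-p3, DESeq2 1.16.1 and edgeR 3.18.1 were used; strand and read length are not given in the sources used here. The notes name build mm8, but of 52636 gene identifiers 52403 are in GENCODE M21 (GRCm38), 95.24% of them with the same coordinates, so coordinates are read as GRCm38. The deposited gene length (used in FPKM) equalled the GENCODE exon union, shared exons included, for 41 of 42 members.

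FPKM times length gave whole reads (100% of values, within 0.01 reads), with 18914607 to 26530485 reads per library and 18.7 to 27.2 reads per kilobase at 1 FPKM. The deposited values gave the same median-of-ratios factor (1.007) in every library, so the authors' FPKM already carry a scaling of that kind. Replicates differed beyond sampling noise (chi-square per gene 4.65 to 13.25 for pairs in control and PCN, and 16.7 to 71.5 in the groups with cisplatin).

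Genes at 1 FPKM or more in at least 3 of 12 libraries (13540) were tested with limma 3.58.1 (R 4.3.3, intensity trend) on log2(FPKM + 1), 1 fit of 4 group means, two-sided, Benjamini-Hochberg adjusted within each of 5 comparisons; a gene passed at an adjusted p under 0.05. An exact permutation test of 3 against 3 cannot go below p = 0.1 and was not used. The procedure was tested on simulated data. Members by role are all given where tested; from each of 6 gene lists the 3 tested genes with the largest change with cisplatin, and Cyp3a11, Nr1i2, Nr1i3, Abcc2 and Abcc3, are named, with markers as needed. Members and lists were chosen with earlier results of these data known. Python 3.11.15 was used for tables and sequence searches. Alternatives were pseudocounts of 0.1 and 0.5, no minimum, a mean FPKM of at least 5, median-of-ratios scaling, only the groups compared, a replicate block, limma-voom on whole reads, leaving out each library and, added after seeing the data, scaling by total reads.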

Additional observations from a re-analysis of the deposited data

How the results depend on the processing

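Against control, the calls of every member tested were the same under all alternatives run for cisplatin and for PCN (331 values each), and no called value changed direction in any comparison. Median-of-ratios scaling used the same factor (1.007) for every library, so it was close to the main fit by design. For Sult1e1, Ugt1a1, Ugt1a2 and Ugt1a9, which met the minimum only with cisplatin, the unchanged cisplatin calls were largely built in. With a mean FPKM of at least 5, which tests fewer genes, cisplatin against control called 5197 genes and 8 members, cisplatin+PCN against PCN 4031 genes, and the interaction 30. With no minimum, PCN against control called 2 genes, and cisplatin+PCN against cisplatin 1008 genes and 2 members. With only the groups compared, cisplatin+PCN against cisplatin called 1 gene and 0 members. The interaction called 29 genes with total-read scaling and 68 with limma-voom. Leaving out single libraries gave 580 to 3390 genes and 0 to 8 members for cisplatin+PCN against cisplatin, and 9 to 1066 genes and 0 to 3 members for the interaction. The lowest and highest of these came without cisplatin replicate 3 (580 and 0) and without cisplatin replicate 2 (3390 genes) or cisplatin+PCN replicate 2 (8 members). The causes were not tested. Correlations of same-numbered deviations ran from -0.28 to 0.37, over 0.1 in 4 of 18 pairs. These 4 were control with PCN (0.22 and 0.16) and cisplatin with cisplatin+PCN (0.37 and 0.24), in replicates 1 and 2. In replicate 3 the same groups gave 0.028 and -0.28. Differently numbered libraries were not compared, so whether replicate numbers pair the libraries is not settled. With a replicate block 13, 0, 6, 12 and 0 members passed in the 5 comparisons, against 13, 0, 5, 12 and 0. Ugt1a1, Ugt1a9 and Ugt2a3 rest on few reads at their low end, which limits their folds.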
